A study of Mus musculus with 16 samples.

Results

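The genes described here are 9 markers of endothelium and of the blood-brain barrier, namely Pecam1, Cdh5, Kdr, Tek, Flt1, Vwf, Slc2a1, Abcb1a and Slco1c1. Their probes were taken from the array files as every non-control spot whose gene name equals one of these symbols, which gave 19 probes of 41174 probes on the array, and 9 gene names of 27962. Lumbar spinal cord of male mice was measured on 16 arrays, with 4 biological replicates in each of 4 groups, SOD1G93A and non-transgenic wild-type mice at 40 and at 80 days of age, all on the B6SJL background. SOD1G93A mice carry many copies of a human SOD1 transgene with a mutation found in familial amyotrophic lateral sclerosis, and both ages precede overt disease in this colony. Each array carried cord RNA labeled with Cy3 beside a Cy5-labeled pool of neonatal heart, kidney and liver RNA from both genotypes, so each value is a log2 ratio of cord over pool.

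Endothelial cells line every vessel. In the central nervous system their tight junctions, transporters and efflux pumps form the blood-brain and blood-spinal cord barrier, which pericytes, smooth muscle (together, mural cells) and astrocyte endfeet surround. Pecam1 and Cdh5 (VE-cadherin) hold endothelial cells together. Kdr and Flt1 are the receptors for vascular endothelial growth factor (VEGF), Kdr the main signaling one and Flt1 largely a decoy, while Tek is the angiopoietin receptor. Vwf is the clotting factor that endothelium stores and releases. Slc2a1 carries glucose across the barrier, Abcb1a is the P-glycoprotein efflux pump, and Slco1c1 carries thyroid hormone.

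Of the 19 probes, 13 were bright enough to test and each gene had at least 1 of them. Where a gene had several, the brightest stood for it and the others are named. The probes on which the results turn are shown by their first 30 of 60 bases, read 5′ to 3′ from the array files, all in lower case since no part of them is singled out. The Kdr probe lay on the minus strand at chr5:75351537-75351596 of build mm7. The Slco1c1 probe lay on the plus strand at chr6:141615390-141616753, a stretch of 1364 bases for a probe of 60, so it crosses at least 1 intron. Both Vwf probes lay on the plus strand, at chr6:125709328-125709387 and chr6:125708635-125708694. The Tek probe lay on the plus strand at chr4:94266776-94266835. The exon or untranslated region each probe falls in was not analysed here.
Kdr: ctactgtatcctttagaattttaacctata
Slco1c1: ggtgcattcaaccacaacttaagtcttttg
Vwf, first probe: caagtgaggcctgtgcagctacagcggatt
Vwf, second probe: ccaaggtgcagtacatcaaagtgggagatt
Tek: ctctaatgtgactgtatatactgctcggag

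The 6 probes left out were a further probe each of Pecam1, Kdr, Tek and Vwf and 2 of Flt1, with a cord signal well above background on at most 1 of 16 arrays. Over all probes, between 46.1% and 55.3% were well above background in Cy3 per array. Neuronal Snap25 and astrocytic Gfap lay far above the pool, at median log2 ratios of 7.26 and 6.47, the lumbar-level gene Hoxc10 lay at 2.04, and the probe for the motor neuron gene Chat was not well above background on any of 16 arrays. Each slide held the same replicate number of all 4 groups, and each group sat at the same position on every slide, so a group and its array position cannot be told apart. The cord was measured whole, so fewer endothelial cells and less RNA per cell cannot be told apart.

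Among the 9 genes, the 3 barrier transporters lay above the organ pool and the general endothelial genes, apart from Flt1, below it. Other barrier transport genes lay on both sides, with group means from −2.3 to −1.71 for Slc38a5 and from 3.97 to 4.19 for Mfsd2a. The 3 barrier transporters were higher in cord than in the pool on all 16 arrays. Slco1c1 was highest, with a median log2 ratio of 3.23 (2.73 to 3.56), or 9.38-fold over the pool. Slc2a1 lay at 2.09 (1.88 to 2.27) and Abcb1a, whose pool signal was well above background on 13 of 16 arrays, at 0.48 (0.30 to 0.85). The members shared by endothelium of all organs, apart from Flt1, were lower in cord on all 16 arrays. Cdh5 lay lowest at a median of −3.88 (−4.03 to −3.54), followed by Kdr at −2.69 (−2.97 to −2.32), Tek at −1.90 (−2.12 to −1.73), Pecam1 at −1.78 (−1.87 to −1.64) and Vwf at −1.29 (−2.57 to −0.41). Flt1 stood apart from its partner receptor, with a median of 0.10 and 9 arrays above the pool and 7 below it. The ranges of Tek and Pecam1 overlapped, and the wide range of Vwf overlapped those of Kdr, Tek and Pecam1. These levels are descriptions, since the dyes were never swapped, and they rest on the loess step, which centres each array's ratios at every brightness. Without that step Slc2a1 lay at −1.45 and Abcb1a at −0.67, both below the pool, Flt1 lay at −3.56, and only Slco1c1 stayed above it, at 0.73. On the processed signals Slco1c1 lay at 4.68, so its fold over the pool depends on the processing. The second Cdh5 probe, which was dim in cord, gave −1.68, so the depth of the Cdh5 ratio differs between probes.

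**Figure D1:**
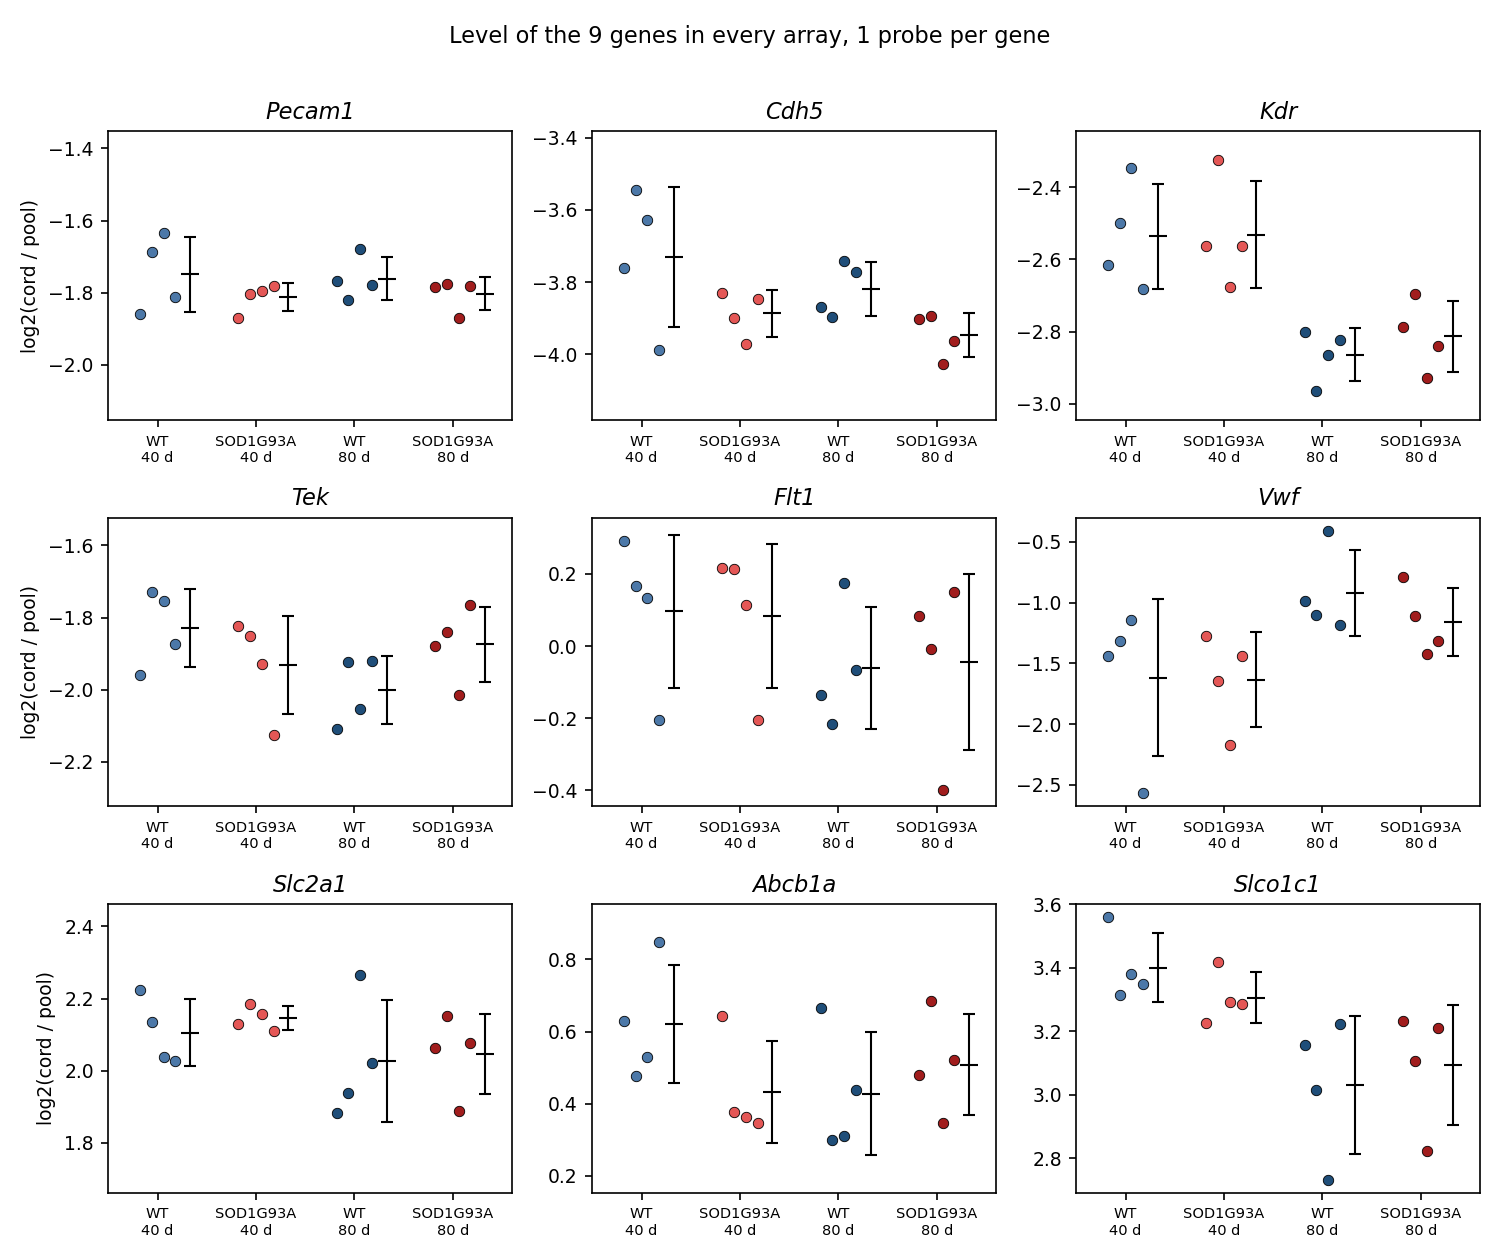
Each panel shows 1 gene, with the log2 ratio of cord over pool on the vertical axis (scale differs between panels) and the 4 groups across. Points are single arrays, and the black bars beside them are the mean ± SD of 4 arrays. Kdr sits lower at 80 than at 40 days in both genotypes, and Vwf spreads from −2.57 to −0.41.

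The first comparison asked whether the mutant transgene changed these genes at 40 days. None of the 9 passed p under 0.05 in limma, where 4.47% of all 21338 probes did. Their median log2 change was −0.06, against 0.003 for all probes, with 2 genes higher and 7 lower in SOD1G93A. The lowest was Abcb1a, at −0.19 (95% interval −0.40 to 0.02, limma p = 0.0763, adjusted p = 0.998, exact permutation p = 0.171). Its wild-type arrays read 0.63, 0.48, 0.53 and 0.85 and its SOD1G93A arrays 0.64, 0.38, 0.36 and 0.35. Of the SOD1G93A arrays, 3 lay below all 4 wild-type ones and 1 lay among them. Without that array, SOD1G93A replicate 1, the change passed at −0.26, and on the processed signals of the extraction software it passed at −0.42. Leaving out single arrays moved the change between −0.26 and −0.11, and it passed in 2 of 8 cases.

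Cdh5 came next at −0.16 (−0.36 to 0.05, limma p = 0.118, exact permutation p = 0.229). Its wild-type arrays read −3.76, −3.54, −3.63 and −3.99 and its SOD1G93A arrays −3.83, −3.90, −3.97 and −3.85. The single low wild-type array, replicate 4, lay below every SOD1G93A array, and without it the change passed at −0.24. Leaving out single arrays moved the change between −0.24 and −0.09, and it passed in 1 of 8 cases. Wild-type replicate 4 was also the lowest array in the meningeal fibroblast genes described below. The second Cdh5 probe gave −0.02 (limma p = 0.746, exact permutation p = 0.743). The VEGF receptors did not separate the genotypes, with Kdr at 0.004 (−0.20 to 0.21) and Flt1 at −0.01 (−0.28 to 0.26), and Slc2a1, the main glucose carrier of the barrier, at 0.04 (−0.09 to 0.17). For these 3 genes the intervals leave room for changes of up to about 0.28 on the log2 scale.

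At 80 days, again 0 of 9 genes passed, beside 6.86% of 21603 probes. The median log2 change was 0.02, with 6 genes higher and 3 lower. Cdh5 was again on the lower side, at −0.13 (−0.27 to 0.01, limma p = 0.07, exact permutation p = 0.0571), with wild-type arrays from −3.90 to −3.74 and SOD1G93A arrays from −4.03 to −3.89. The groups overlapped by 1 array each. The second Cdh5 probe gave −0.04 (limma p = 0.608, exact permutation p = 0.629). Tek, the angiopoietin receptor, lay at 0.13 (−0.04 to 0.29, limma p = 0.117, exact permutation p = 0.143), and its groups overlapped. Within slides Tek was higher in SOD1G93A on all 4, by 0.04 to 0.23, but arrays of a slide were not taken as pairs. Leaving out single arrays moved its change between 0.09 and 0.17, and it passed in 1 of 8 cases, at 0.17 without SOD1G93A replicate 3. Vwf had the widest interval, −0.24 (−0.64 to 0.16, limma p = 0.214, exact permutation p = 0.343). Its second probe gave −0.31 (limma p = 0.0819, exact permutation p = 0.2). Kdr lay at 0.05 (−0.10 to 0.20), Slco1c1 at 0.06 (−0.21 to 0.33), Abcb1a at 0.08 (−0.14 to 0.30), and Pecam1, Flt1 and Slc2a1 between −0.04 and 0.02.

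The change with genotype was then compared between the ages. None of the 9 genes passed this test, where 6.68% of 21953 probes did. Tek and Abcb1a had the largest differences upwards, at 0.23 (limma p = 0.0539, exact permutation p = 0.0531) and 0.27 (limma p = 0.0798, exact permutation p = 0.0959). Both lay lower in SOD1G93A at 40 days and higher at 80 days. Leaving out single arrays moved Tek between 0.17 and 0.28 and brought it past the threshold in 6 of 16 cases.

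**Figure D2:**
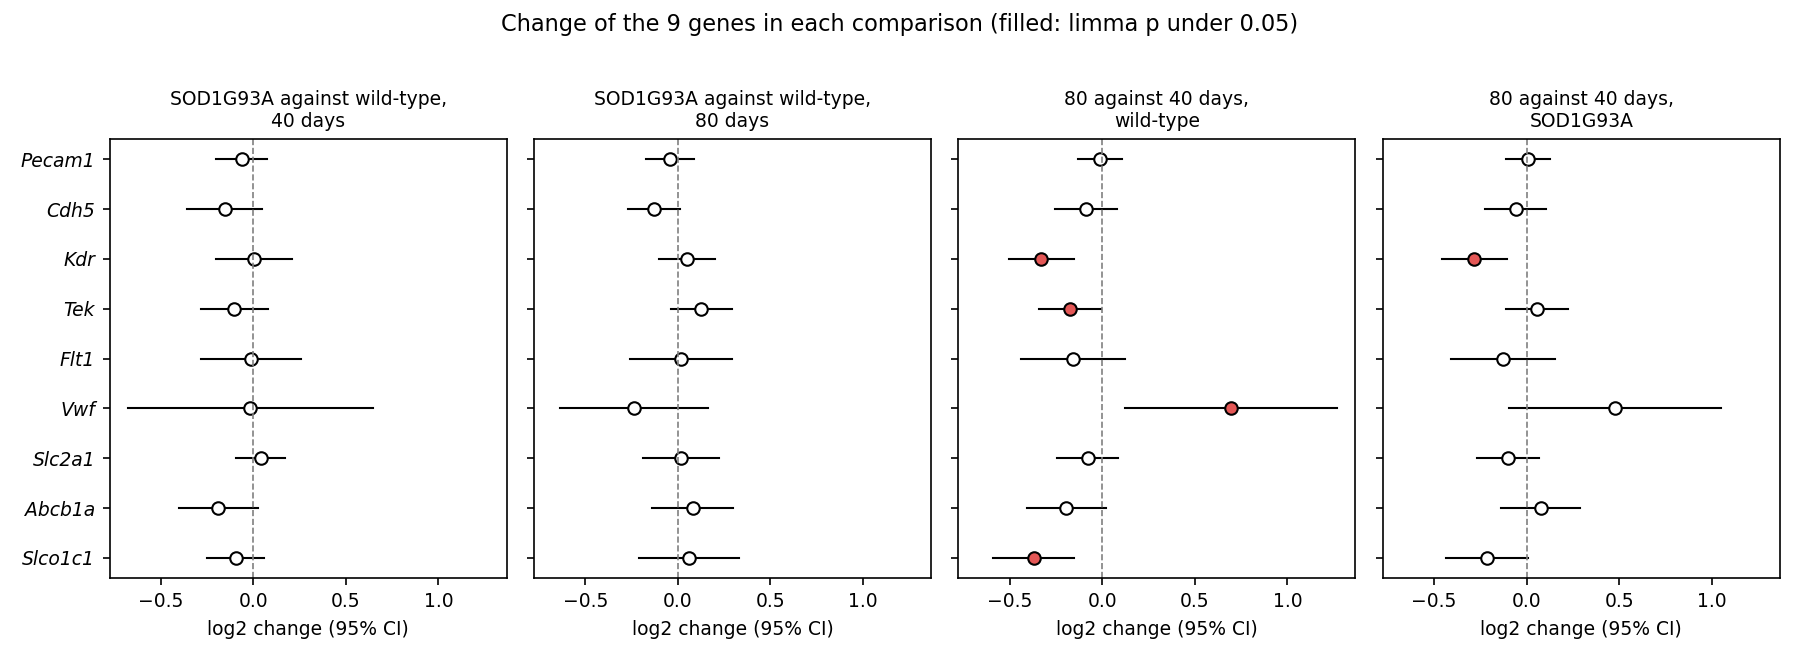
Log2 change of each gene (points) with its 95% interval (lines) in the 4 comparisons, filled where limma's p was under 0.05. Every interval for genotype crosses 0, and the filled points are Kdr, Tek, Vwf and Slco1c1 between the ages in wild-type mice and Kdr in SOD1G93A mice.

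The next comparison was between the ages within each genotype. Between 40 and 80 days, 4 of 9 genes passed in wild-type mice, 3 lower and Vwf higher, beside 15.3% of all 21526 probes, and 1 of 9 in SOD1G93A mice, beside 17.2% of 21507. None of these member calls held after adjustment over all probes. The median log2 change of the 9 genes was −0.16 in wild-type and −0.06 in SOD1G93A, against 0.01 for all probes in both. The genotype and age comparisons share arrays, so they are not independent of each other.

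Kdr, the main VEGF receptor, fell with age in both genotypes. In wild-type cord its log2 ratios were −2.62, −2.50, −2.35 and −2.68 at 40 days and −2.80, −2.97, −2.87 and −2.82 at 80 days. In SOD1G93A cord they were −2.56, −2.32, −2.68 and −2.56 at 40 days and −2.79, −2.70, −2.93 and −2.84 at 80 days. All 8 of the older arrays lay below all 8 of the younger ones. The fall was 0.33 in wild-type on the log2 scale (change −0.33, SE 0.083, limma p = 0.00111, adjusted p = 0.0576, exact permutation p = 0.0286, the smallest 4 against 4 can give). In SOD1G93A the change was −0.28 (SE 0.083, limma p = 0.00361, adjusted p = 0.105, exact permutation p = 0.0286). Within slides the older array was therefore lower in 4 of 4 pairs of each genotype, which adds nothing to that separation. The call in wild-type held under every alternative processing tried (changes from −0.61 to −0.28), and that in SOD1G93A was lost only without loess, at −0.15. The 2 falls did not differ between the genotypes beyond their error (difference 0.05, −0.20 to 0.30). The other Kdr probe was too dim to test.

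Slco1c1, the thyroid hormone carrier, fell in wild-type cord. Its log2 ratios were 3.56, 3.32, 3.38 and 3.35 at 40 days and 3.16, 3.01, 2.73 and 3.22 at 80 days, with no overlap. The change was −0.37 (SE 0.10, limma p = 0.00257, adjusted p = 0.0912, exact permutation p = 0.0286). In SOD1G93A cord it read 3.23, 3.42, 3.29 and 3.29 at 40 days and 3.23, 3.11, 2.82 and 3.21 at 80 days, a change of −0.21 (limma p = 0.0567, exact permutation p = 0.0571) that passed in limma with the slide as a block and turned to 0.03 without the reset of bright local backgrounds. The 80-day arrays reached down further and overlapped the 40-day arrays by their highest value. The size of the wild-type fall depended on the background step. It was −0.11 when spots with a bright local background were not reset and also −0.11 on the processed signals, and passed in neither. Leaving out any 1 array kept it between −0.43 and −0.27.

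Vwf moved the other way. In wild-type cord its log2 ratios were −1.44, −1.32, −1.15 and −2.57 at 40 days and −0.99, −1.10, −0.41 and −1.19 at 80 days. Apart from the low replicate 4, the younger arrays lay just below or among the older ones. The change was 0.70, or 1.62-fold (SE 0.27, limma p = 0.0199, adjusted p = 0.224, exact permutation p = 0.0571). The second Vwf probe gave 0.65 (SE 0.22, limma p = 0.0101, adjusted p = 0.172, exact permutation p = 0.0286), with no overlap. The first probe's change was 0.38 without wild-type replicate 4 at 40 days and 0.53 without wild-type replicate 3 at 80 days, neither of which passed. In SOD1G93A cord it read −1.28, −1.65, −2.17 and −1.44 and then −0.79, −1.11, −1.43 and −1.31, a change of 0.48 (limma p = 0.0969, exact permutation p = 0.114). The second probe gave 0.27 there (limma p = 0.251, exact permutation p = 0.257). On the first probe the 80-day array was higher on 4 of 4 slides in each genotype, by 0.22 to 1.38 in wild-type and 0.13 to 0.75 in SOD1G93A. Arrays of a slide were not taken as pairs.

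Tek passed in wild-type only by a little, at −0.17 (SE 0.078, limma p = 0.0421, exact permutation p = 0.0857). Its arrays read −1.96, −1.73, −1.76 and −1.87 at 40 days and −2.11, −1.92, −2.05 and −1.92 at 80 days, which overlap, and leaving out single arrays lost the call in 4 of 8 cases. The call was also lost on the Cy3 channel alone, at −0.09, with array weights, at −0.13, and without the reset, at −0.27. In SOD1G93A the change was 0.06 (limma p = 0.475, exact permutation p = 0.571). The remaining 5 genes did not pass in either genotype. Pecam1 was the steadiest, at −0.01 (−0.13 to 0.11) and 0.01 (−0.11 to 0.13), Cdh5 lay at −0.09 and −0.06, Slc2a1 at −0.08 and −0.10, Flt1 at −0.16 and −0.13, and Abcb1a at −0.19 and 0.08. Of the 3 Flt1 probes tested, the 2 that lie beside each other gave −0.16 and −0.13 in wild-type, and the third, 75.9 kb from the first, gave −0.22 (limma p = 0.027, exact permutation p = 0.114).

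Vwf varied most among replicates. Its SD within groups was 0.44 on the log2 scale, above that of 99% of all probes tested, and 0.36 on its second probe, whereas the median of all probes was 0.11, Kdr had 0.12 and Pecam1 0.07. The Kdr and Pecam1 probes are means of 10 spots and the Vwf probes single spots, so these SDs are not of like probes, and among the other members with single spots the SD ran from 0.11 for Tek, Cdh5 and Slc2a1 to 0.21 for Flt1. Both Vwf probes varied together (r = 0.96 over 16 arrays, as deviations from group means), so the scatter is not that of 1 spot. It moved with lists of markers of other cells of the vessel wall and its surroundings. Against the median deviation of 16 mural cell genes r was 0.84, against 9 meningeal fibroblast genes 0.73 and against 25 other endothelial genes 0.72. In wild-type replicate 4 at 40 days, the array with the lowest Vwf, the median deviation from the group mean was −1.30 for the meningeal genes and −0.20 for the mural genes. Without that array the values of r were 0.63, 0.33 and 0.53. The arrays share processing, these correlations are descriptions, and the part of such tissue differences in the change with age was not tested. At 40 days all 9 meningeal genes lay lower in SOD1G93A than in wild-type, at a median of −0.62, with 0 of 9 past p under 0.05. Their median deviation from the mean of all arrays ranged from −1.05 to 0.88 in wild-type and from −0.81 to −0.02 in SOD1G93A. The value of −1.05 was that of wild-type replicate 4, and replicates 1 to 3 (0.38, 0.88 and 0.79) lay above every SOD1G93A array. At 80 days 1 of the 9 meningeal genes passed, lower in SOD1G93A, beside 6.86% of all probes. The first Cdh5 probe also moved with these lists, at r = 0.81 for mural and 0.76 for meningeal genes. The second gave 0.43 and −0.004. The part of such differences in the Cdh5 change with genotype was not tested.

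**Figure D3:**
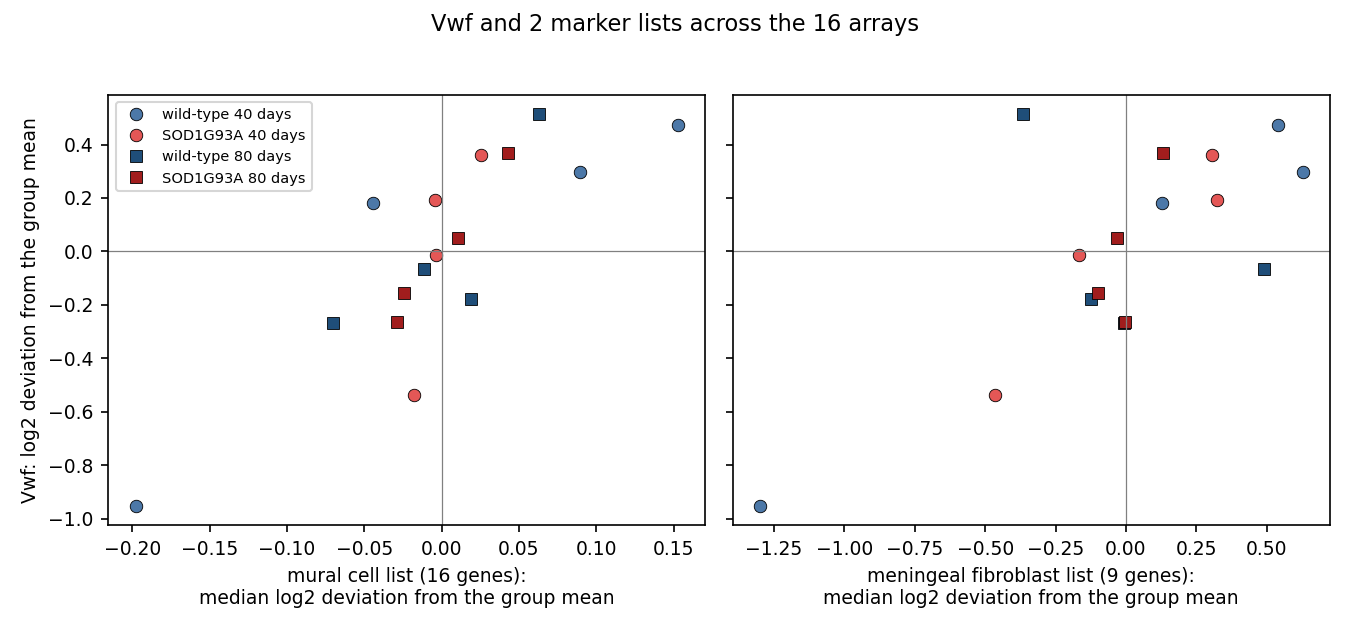
Each point is 1 of 16 arrays. The vertical axis is the log2 deviation of Vwf (first probe) from its group mean, and the horizontal axes are the median log2 deviation of 16 mural cell genes (left) and 9 meningeal fibroblast genes (right). The point furthest down on the left of both panels is wild-type replicate 4 at 40 days. In the right panel the array with the highest Vwf (0.51, wild-type replicate 3 at 80 days) lies at a low list value (−0.36).

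The other genes of the vessel wall were read from lists of related genes. Of 25 further endothelial genes, 2 passed between genotypes at 40 days and 1 at 80 days, all lower, beside the 4.47% and 6.86% of all probes. Plvap was lower at both ages, as the paper also lists it from these arrays. The gene encodes the diaphragm protein of fenestrated and leaky endothelium, which mature barrier vessels largely lack. At 40 days its log2 ratios ran from −1.82 to −1.64 in wild-type and from −2.04 to −1.88 in SOD1G93A, a change of −0.25 (SE 0.063, limma adjusted p = 0.998). At 80 days they ran from −1.75 to −1.57 and from −2.02 to −1.86, a change of −0.28 (SE 0.068, limma adjusted p = 0.654). The groups did not overlap at either age, as was so for 2.83% of probes at 40 days and 4.31% at 80 days. Both changes passed without any single array. The call at 40 days was lost without the reset of bright local backgrounds (−0.21), and that at 80 days without loess (−0.16). Of the 9 meningeal genes, 9 were also lower in SOD1G93A at 40 days (median −0.62) and 6 at 80 days (median −0.17). Their part in the Plvap change was not tested. Emcn was the other endothelial gene called at 40 days, at −0.21 (limma adjusted p = 0.998). The tight junction gene Cldn5 lay at −0.09 (limma adjusted p = 0.998) and −0.14 (limma adjusted p = 0.865).

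Between the ages, 5 of the 25 endothelial genes passed in wild-type (20%, near the 15.3% of all probes), 4 lower and 1 higher. In SOD1G93A 1 passed (4%, below the 17.2% of all probes). Among the lower ones in wild-type were Erg at −0.24 (limma adjusted p = 0.0913) and Sox18 at −0.23 (limma adjusted p = 0.174), both without overlap. Both are endothelial transcription factors. Others on the list moved less in wild-type, with means at 40 and 80 days of −2.57 and −2.58 for Fli1 and −2.35 and −2.41 for Sox17. In SOD1G93A these means were −2.13 and −2.19 for Erg and −2.24 and −2.33 for Sox18. Icam2 was lower in both genotypes, at −0.22 and −0.23. Without single arrays the count of 5 ran from 2 to 6. The Sox18 call was lost on the Cy3 channel alone, at −0.17, and on processed signals, at −0.37. The Icam2 call in SOD1G93A was lost on the Cy3 channel alone, at −0.17, and without loess, at −0.12. The list's median log2 change was −0.03 in wild-type and 0.06 in SOD1G93A, against 0.01 for all probes.

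Mural cells wrap the vessel wall. Of 16 genes on the mural cell list, 7 passed between the ages in wild-type (43.8%, beside 15.3% of all probes), all lower, with a median of −0.14. Other cells of whole cord may also express genes of this list, and the cells behind these values were not resolved. In SOD1G93A 2 passed (12.5%, below the 17.2% of all probes), also lower, with a median of −0.07. In wild-type these were Mcam at −0.47 (SE 0.071, limma adjusted p = 0.00256), Myh11, the smooth muscle myosin, at −0.40 (SE 0.091, limma adjusted p = 0.0361), Cspg4 (NG2) at −0.30 (limma adjusted p = 0.0467), the pericyte gene Rgs5 at −0.68 (limma adjusted p = 0.0554), and Pdgfrb, Kcnj8 and Higd1b between −0.30 and −0.26. Rgs5 was also lower in SOD1G93A, at −0.72 (limma adjusted p = 0.0534). Leaving out any 1 array left between 6 and 8 of the 16 past the threshold in wild-type. Between genotypes, 3 of the 16 passed at 40 days (18.8%, beside 4.47% of all probes), Myh11, Cspg4 and Mcam, all lower in SOD1G93A, between −0.33 and −0.16, and without single arrays this count ran from 1, lacking wild-type replicate 1 or SOD1G93A replicate 1 or 3, to 7, lacking wild-type replicate 4. At 80 days 1 passed (6.25%, near the 6.86% of all probes), Mcam, higher at 0.18, and without single arrays this count ran from 0 to 2. The paper lists Myh11 among its genes lower at 40 days. Wild-type replicates 1 to 3 at 40 days, which were high in the meningeal genes, had median mural deviations of 0.06, 0.20 and 0.26 from the mean of all arrays. Replicate 4, low in the meningeal genes, lay at −0.09. The part of such tissue differences in the mural changes with genotype and age was not tested.

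**Figure D4:**
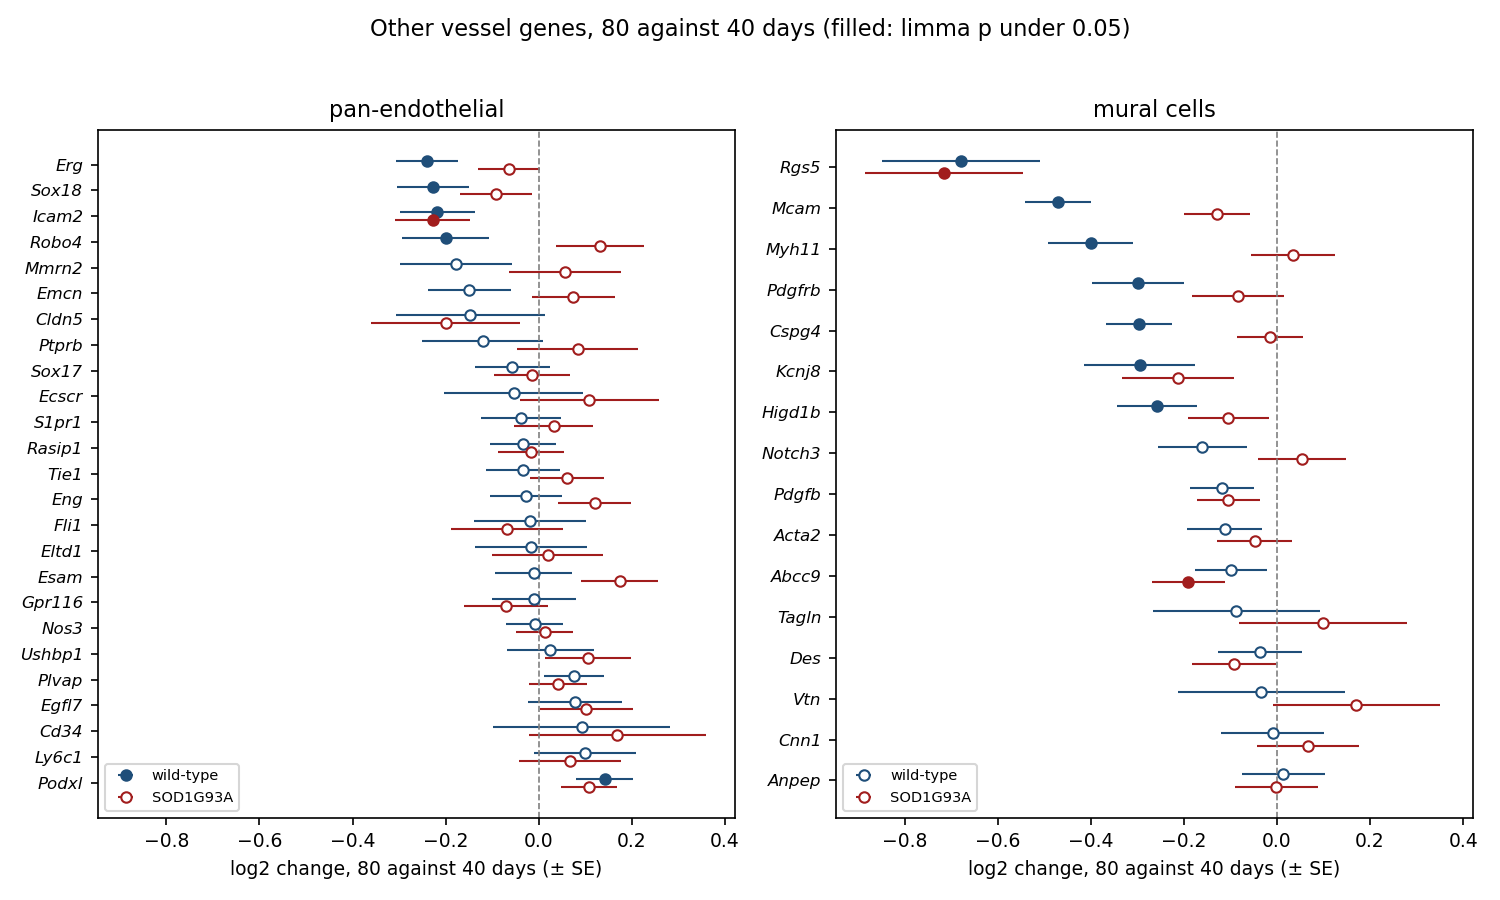
Log2 change from 40 to 80 days (points, ± SE) of 25 further endothelial genes (left) and 16 mural cell genes (right) in wild-type and SOD1G93A mice, filled where limma's p was under 0.05. In the mural panel 7 wild-type points are filled, all below 0.

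Genes that share a pathway with the members were mostly below the threshold between genotypes. Among barrier transport genes, 0 of 16 passed at 40 days and 1 of 17 at 80 days (5.88%, near the 6.86% of all probes). It was the amino acid carrier Slc38a5, at −0.36 (limma adjusted p = 0.668) with groups apart, a call lost without loess (−0.22). Of 13 tested genes of the VEGF and angiopoietin pathway 0 passed at either age. On its brightest tested probe Vegfa lay at 0.08 (limma adjusted p = 0.998) and 0.01 (limma adjusted p = 0.98), and Angpt2, the antagonist ligand of Tek, at −0.06 and −0.12. The paper, with its own processing of these arrays, lists Vegfa as differentially expressed at both ages, higher at 40 days and lower at 80 days. The probe behind its values may be another one. Among 16 genes of the Wnt pathway that maintains the barrier, 1 passed at each age (6.25%, near the 4.47% and 6.86% of all probes). These were Foxq1, lower at 40 days (−0.18), and Apcdd1, higher at 80 days (0.32), and neither held after adjustment. With age in wild-type, Apcdd1, a Wnt target of barrier endothelium, fell by 0.56 (limma adjusted p = 0.00546). Its means at 40 and 80 days were −0.19 and −0.75 in wild-type and −0.25 and −0.43 in SOD1G93A. Of the genes that act with Vwf in haemostasis, 0 of 6 passed at 40 days and 2 of 7 at 80 days, beside 6.86% of all probes. These were Tfpi at −0.22 (limma adjusted p = 0.654) and Pf4 at −0.26 (limma adjusted p = 0.708). Tfpi was called in 7 of 11 alternatives (−0.63 to −0.09). With age in wild-type 3 of 7 passed (42.9%, beside 15.3% of all probes), 2 higher and 1 lower, with a list median of 0.12. The lower one was Plat, the tissue plasminogen activator, at −0.39 (limma adjusted p = 0.139).

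Markers of other cells were counted beside these. Of 10 astrocyte markers, 4 passed at 40 days, beside 4.47% of all probes, all higher in SOD1G93A, and 1 passed at 80 days, beside 6.86%, lower. Gfap lay at 0.24 at 40 days and was called in 6 of 12 alternatives (0.07 to 0.29). S100b lay at 0.25 and was called in 9 of 12 (0.08 to 0.25). Of 10 microglia markers 1 passed at 40 days, C1qb at 0.29, and 0 at 80 days. Of 9 neuron markers 0 and 1 passed, of 4 erythrocyte markers 0 and 0, of 7 genes of endothelial activation 0 and 0, and of 9 genes of glucose and thyroid hormone handling 0 and 0. Their part in the values above was not tested.

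Within groups the 9 genes partly moved together. Over the 16 arrays, as deviations from group means, 27 of 36 pairs had r above 0, with a median of 0.29 and a range from −0.34 to 0.85. Cdh5 and Vwf were the closest pair, and Abcb1a and Cdh5 the furthest apart. Against the mean of the other 8, Cdh5 had r = 0.76, Flt1 0.74 and Kdr 0.64, while Slco1c1 had 0.11 and Abcb1a −0.15. Slc2a1 had 0.49, Vwf 0.51, Pecam1 0.46 and Tek 0.33. The mean of the 9 was lowest in wild-type replicate 4 at 40 days (−0.19) and SOD1G93A replicate 3 at 80 days (−0.18). The 25 other endothelial genes followed it at a median r of 0.60, with 16 of them above 0.5, as were 8.38% of all 21767 probes, whose median was 0.01. Mural genes had a median of 0.39, meningeal genes 0.49 and astrocyte genes −0.23. Among the 10 genes outside the list with the highest r over these 16 arrays were Vps28 (0.93), Ndufs3 (0.91), the receptor Kit (0.89), Uhrf2, 6030443O07Rik, Timm17b, Tfdp1 and Zc3h11a (0.88).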

How the data were processed

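RNA from lumbar spinal cord was hybridised to 16 Agilent Whole Mouse Genome two-colour arrays, 4 per group. Per the file headers, the deposited spot values are fluorescence intensity readings from Agilent Feature Extraction 9.5.3.1, with probe positions in build mm7. The authors also deposited a matrix of log2 values, normalized separately at each age, which served only as an alternative within ages.

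Median intensities of both channels were used. A spot more than 20 units below its local background took the array's median background. Background was corrected with normexp (offset 50), ratios by loess within arrays and by Aquantile between arrays, in limma 3.58.1 (R 4.3.3). Control and outlier spots were left out and spots of a probe averaged. Probes entered a test if their Cy3 flag stood well above background on 3 or more of the 4 arrays in either group, with 2 or more arrays measured in each. Genotypes were compared at each age with 8 arrays, and ages and the difference between ages with all 16. The threshold was an unadjusted p of 0.05, with Benjamini-Hochberg values beside it. The exact permutation tests are two-sided, over 70 splits for 4 against 4 or 4900 relabellings. The scripts were tested on simulated data. Figures used matplotlib 3.10.9.

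P-values measure only the spread between these arrays, whose number limits the precision. Members, lists and the background reset were chosen with earlier results of these data known. Genes named were the members with each probe, up to 4 genes per list past the threshold with groups apart, the 10 genes most alike (not all of them reported here), Cldn5, Vegfa and Angpt2, and tissue markers. Other list genes were named after their values were seen. Alternatives covered the background, normalization, channel, filter, probe choice, array weights, slide as a block and single arrays left out. Same-numbered arrays lay on the same slide.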

Additional observations from a re-analysis of the deposited data

Results flagged for a closer look

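In 52 groups of 4 arrays, 1 for each tested member probe and group, 2 held an array far from the other 3, and chance gives about 1 in 20. Pecam1 was at −1.87 in SOD1G93A replicate 3 at 80 days, with the others at −1.78. Abcb1a was at 0.644 in SOD1G93A replicate 1 at 40 days, with the others between 0.347 and 0.376.

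The genotype change differed between the ages at an unadjusted limma p threshold of 0.05 for 11 of 152 list genes tested (7.24%, near the 6.68% of all probes) and no member, and none held after adjustment over all probes (smallest limma adjusted p = 0.496). Among vessel genes the difference, 80 minus 40 days, was 0.332 for Robo4, 0.374 for Apcdd1, 0.282 for Cspg4, 0.342 for Mcam and 0.435 for Myh11. Among astrocyte genes it was −0.406 for Gfap, −0.305 for S100b, −0.453 for Slc1a2 and −0.397 for Slc1a3. Among neuron genes it was 0.366 for Slc18a3 and −0.431 for Syt1.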

How the results depend on the processing

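Of the 9 genes, none was called between genotypes at 40 days, none at 80 days and none for the difference between the ages, 4 between ages in wild-type and 1 in SOD1G93A. At 40 days 1 was called without background subtraction, without normalization within arrays, on processed signals and with array weights. At 80 days 1 was called without normalization within arrays and without the filter on dim probes. For the difference, 2 were called without background subtraction and without normalization within arrays, and 1 on processed signals, without the filter and with array weights. In wild-type 2 were called without the reset of bright backgrounds and 7 without normalization within arrays. In SOD1G93A 2 were called on the Cy3 channel alone and on processed signals and 3 with array weights. Leaving out single arrays gave 0 to 1, 0 to 1, 0 to 2, 3 to 4 and 1 to 2. The same-slide deviations correlated between −0.0659 and 0.198, so the numbers were not taken as pairs. The replicate block gave 0, 0, 0, 4 and 2 calls, the last by adding Slco1c1 (−0.213).

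Several changes near 0 turned direction. On Cy3 alone Pecam1 gave 0.0369 at 40 days and, with age, 0.0462 in wild-type and −0.0107 in SOD1G93A, Slc2a1 −0.0354 and Vegfa −0.0576 at 80 days. On processed signals Slco1c1 gave 0.038 at 40 days, Slc2a1 −0.00819, Slco1c1 −0.00765 and Vegfa −0.0223 at 80 days, and Pecam1 0.0254 and −0.0402 with age. Without the reset Pecam1 gave 0.000779 and Slco1c1 −0.0418 at 80 days, and, with age in SOD1G93A, Pecam1 −0.105, Tek −0.0888 and Slco1c1 0.0285. Without normalization within arrays Kdr gave −0.13, Slc2a1 −0.0977 and Vegfa −0.0527 at 40 days, Pecam1 0.0656 and Angpt2 0.0116 at 80 days, Vwf 0.051 for the difference, Slc2a1 0.00632 and Cdh5 0.0371 with age in SOD1G93A, and levels of −0.671 for Abcb1a and −1.45 for Slc2a1. That setting shifted the median of all probes by up to 0.205. In the authors' matrix Pecam1 gave 0.0584 at 40 days and Kdr −0.0119, Slc2a1 −0.00598 and Vegfa −0.0428 at 80 days. With array weights the Vwf difference was 0.109. On the dimmest tested probe Flt1 gave 0.0171 and Vwf 0.0747 at 40 days, and Cdh5 0.0737 and 0.0511 with age. The cause was not tested.

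Leaving out single arrays also turned some small changes. At 40 days Flt1 ran from −0.113 to 0.0845, Kdr from −0.0648 to 0.0669, Vwf from −0.335 to 0.163, Cldn5 from −0.16 to 0.0299 and Angpt2 from −0.198 to 0.0579. At 80 days Flt1 ran from −0.0464 to 0.136, Slc2a1 from −0.0302 to 0.0978, Slco1c1 from −0.0372 to 0.152, Cldn5 from −0.226 to 0.00608 and Vegfa from −0.0446 to 0.07. The Vwf difference ran from −0.401 to 0.0964. With age Pecam1 ran from −0.0493 to 0.0249 in wild-type and from −0.0093 to 0.0325 in SOD1G93A, and Tek in SOD1G93A from −0.00703 to 0.104.

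Over all probes, 953 were called at 40 days, against 246 without the reset, 550 on Cy3 alone, 538 in the authors' matrix, 1615 on processed signals and 1881 without the filter. At 80 days 1481 were called, against 2412 without the filter and 2389 with array weights. For the difference 1466 were called, against 797 without the reset, 4308 without normalization within arrays and 2459 without the filter. In wild-type 3289 were called with age, against 5004 without the filter. Dim cord signals, as for Abcb1a, Pecam1, Tek and Cdh5, limit what these arrays can resolve.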
